A study of Arvicanthis niloticus with 59 samples.

Results

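The collagen genes of Arvicanthis niloticus, the Nile grass rat, which is a rodent active by day, were followed through 59 RNA-seq libraries. Its members were the genes whose symbol in the deposited table is Col, a number, the letter a and a number, and 44 of 18970 listed genes met that pattern. The libraries came from 48 sampled sites in 22 organs of 4 animals, named T3F, T173F, T426 and T424 in the labels. All tissue was taken as biopsies from healthy animals without treatment, so the groups compared are sites of the body. T3F gave 38 libraries of 37 sites, T173F gave 12, T426 gave 8 and T424 gave the testis library. Only 10 sites had libraries of 2 animals: femur, sciatic nerve, retina, hippocampus, skeletal muscle and duodenum (each T3F and T426), the site labelled liver (T3F and T426), renal pelvis (T173F and T426), ovary and pancreas (each T173F and T3F). The labels carry no strain, age or sex.

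Collagens are secreted or membrane proteins in which 3 alpha chains wind into a triple helix, and each gene encodes 1 chain. Fibrillar collagens (types I, II, III, V, XI, XXIV and XXVII) form the ropes of bone, tendon, skin and cartilage, and fibril-associated collagens sit on the surface of those fibrils. Type IV makes the sheet of basement membranes, type VI makes beaded filaments around cells, types VIII and X form hexagonal nets, type VII anchors epithelium to the tissue below it, types XV and XVIII (multiplexins) lie in vessel and epithelial basement membranes, and types XIII, XVII, XXIII and XXV span the cell membrane. Levels below are TPM, a share of all transcripts scaled for gene length, as the authors deposited them, so chains can be compared with each other. In pieces of whole tissue, fewer cells of a type and less RNA per cell cannot be told apart.

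The expected counts summed over genes were between 678819 and 41309569 in a library (median 16406604). T3F libraries held 12693819 to 41309569, T173F 1573234 to 23901468, T426 1691561 to 3827321 and testis 678819, so 3 counts corresponded to 0.0726 to 4.42 counts per 1000000. Several libraries went against their labels or held genes of other organs, by the summed TPM of marker lists. The library labelled lung T3F had 118334 TPM of 6 hepatocyte markers, with all 6 at 1 TPM or more, and 8.37 TPM of 4 alveolar markers, while the opposite held for the library labelled liver T3F, where hepatocyte markers summed to 815 and alveolar markers to 55673 TPM. Of 5 germ cell markers in the table, all 5 were at 1 TPM or more in testis and in 4 T426 libraries (retina, hippocampus, femur and sciatic nerve). Their sums there were 139871, 118806, 44048, 22396 and 1915 TPM. Alveolar markers summed to 79772 TPM in trachea, the highest of the 59 libraries, and to 3692 TPM in femur T3F. In cornea hepatocyte markers summed to 6645 TPM and lens markers to 4033 TPM. The part of these markers in the collagen levels was not tested. Acinar markers of the pancreas summed to 73354 TPM in sciatic nerve T426, and in pancreas T173F, the shallowest library of a site with 2 animals, to 1392 TPM, against 328354 TPM in pancreas T3F. They also reached 12305 TPM in muscle T3F and 4467 TPM in nerve T3F, and hepatocyte markers 67734 TPM in duodenum T426, 34261 TPM in retinal pigment epithelium and 18777 TPM in renal pelvis T426. At the other sites with 2 animals the site's own markers were present: all 6 Schwann cell, 4 neuron, 4 photoreceptor, 4 muscle fibre, 5 ovary, 4 enterocyte and 4 urothelial genes in each library of nerve, hippocampus, retina, muscle, ovary, duodenum and renal pelvis.

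The amount of collagen RNA differed widely between sites. The 44 genes summed to between 40.9 TPM in pancreas T3F and 14577 TPM in bladder, a 356-fold range, with a median of 832 TPM. When TPM was rescaled by TMM factors, which offset the weight of a few very abundant transcripts, the range was 113-fold, with bone marrow lowest at 114 and femur T3F highest at 12835. Pancreas T3F then had 344, inguinal fat 12590.2 and bladder 12115, so that femur T3F and inguinal fat stood above bladder. On that scale the library with the highest level stayed for 33 of the 44 genes and changed for 11: it became inguinal fat for Col5a1, Col5a2, Col6a3 and Col14a1, bladder for Col6a2 and Col16a1, liver T426 for Col18a1, trachea for Col9a3, femur T3F for Col11a2, retinal pigment epithelium for Col4a5 and caudal cortex for Col19a1. Levels named below are TPM as deposited. Femur T3F (13586 TPM), inguinal fat (10992), sciatic nerve T3F (9751), trachea (7319), mesentery (6079), uterus (5576), cornea (4945) and the retinal pigment epithelium library (4068) followed bladder. At the low end of deposited TPM, the library labelled lung T3F stood at 84.5 TPM, pancreas T173F at 97.9, bone marrow at 114 and liver T426 at 130. The 10 libraries of brain, spinal cord and midbrain spanned only 347 to 818 TPM (median 490), and 9 of these came from T3F. A median of 33 of the 44 genes reached 1 TPM per library (11 to 42), and all 44 reached 10 TPM somewhere in the body. Of the 44, 32 reached 100 TPM in some library and 5 reached 1000 TPM. A core of 20 genes was at 1 TPM or more in at least 50 libraries, whereas 6 were so in fewer than 25.

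**Figure D1:**
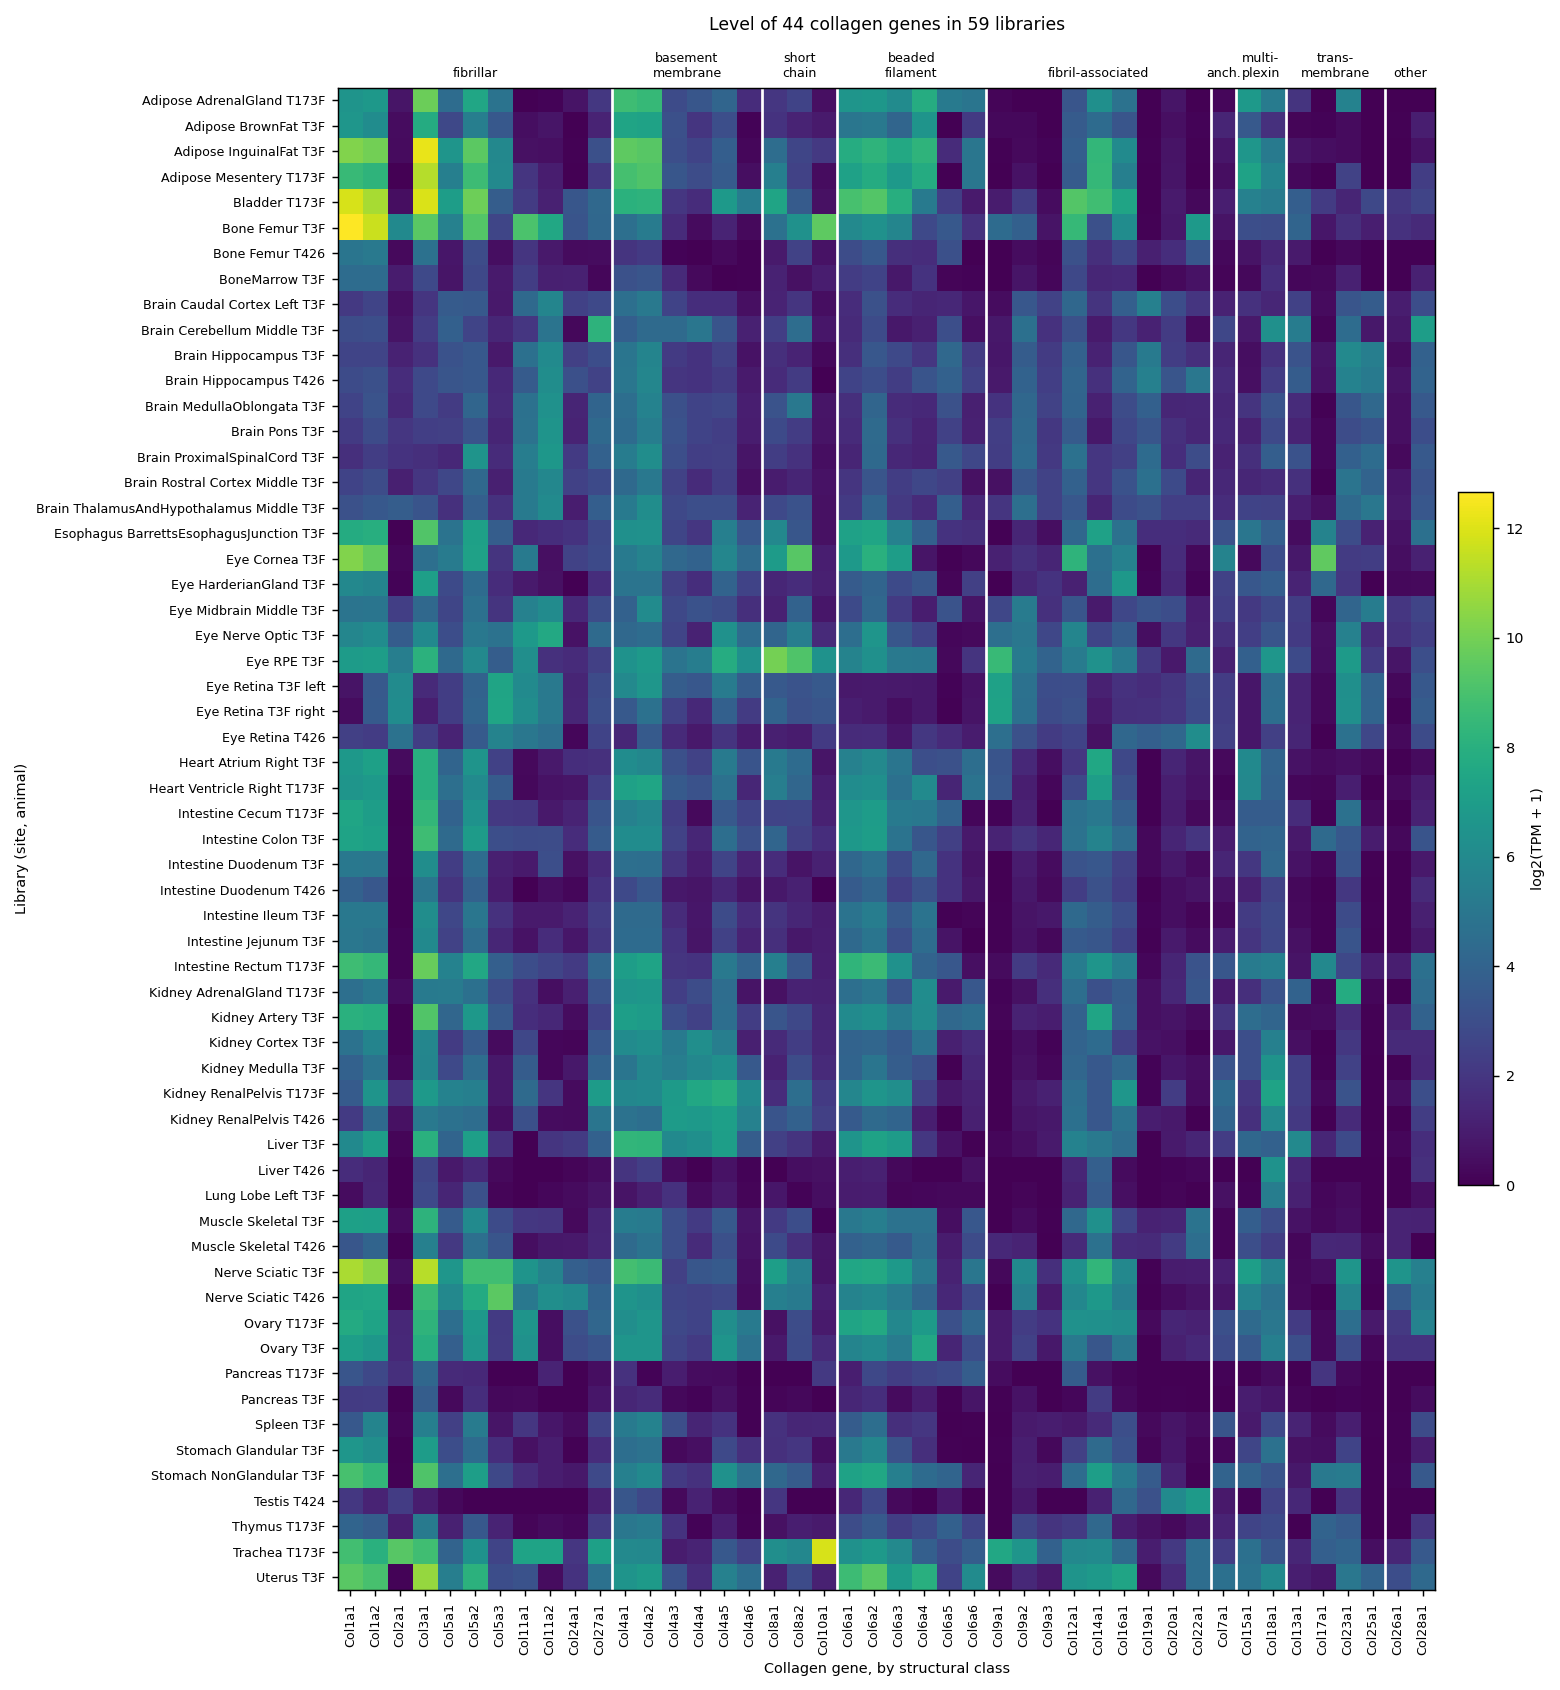
Colour gives the level of each of the 44 collagen genes (columns, grouped by structural class) in each of the 59 libraries (rows, site and animal) as log2(TPM + 1). The fibrillar genes at the left are brightest in bladder, femur T3F, inguinal fat and sciatic nerve T3F, while trachea, cornea, retinal pigment epithelium and renal pelvis are bright in other classes.

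Pairs of animals at a site differed in this sum, in femur most of all. The sum was 13586 TPM in femur T3F and 174 TPM in femur T426, a 77.9-fold gap, so the femur library of T426 lay nearer to the bone marrow library of T3F (114) than to the other femur. For the site labelled liver it was 2167 TPM in T3F, the library with alveolar markers, and 130 TPM in T426. Sciatic nerve had 9751 TPM in T3F and 2752 TPM in T426, and skeletal muscle 1076 and 332 TPM. Hippocampus was the one site at which T426 was above T3F, with 542 against 485 TPM. Osteoblast and osteocyte markers summed to 19599 TPM in femur T3F, with all 8 genes in the table at 1 TPM or more, and to 1693 TPM in femur T426, with 6 of 8. The part of marker content, of depth and of the animal in these gaps was not tested.

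Structural classes took different shares of the sum. Fibrillar genes were 87.1% of collagen TPM in femur T3F and 75.1% in bladder, against a median of 44.8% over all 59 libraries. The basement membrane genes of type IV took 40.9% to 55.7% in the 4 libraries of kidney cortex, medulla and pelvis, against a median of 13.9%. The short-chain class (types VIII and X) took 54.0% in trachea and 41.7% in retinal pigment epithelium, where the median was 1.36%. Col18a1 alone accounted for 66.6% in liver T426 and for 47.7% in the library labelled lung T3F, which carried hepatocyte markers. In testis, 81.2% came from fibril-associated genes, and in the adrenal library filed under kidney 26.6% came from transmembrane genes. The most abundant collagen gene was Col3a1 in 27 of 59 libraries, followed by Col11a2 in 8.

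**Figure D2:**
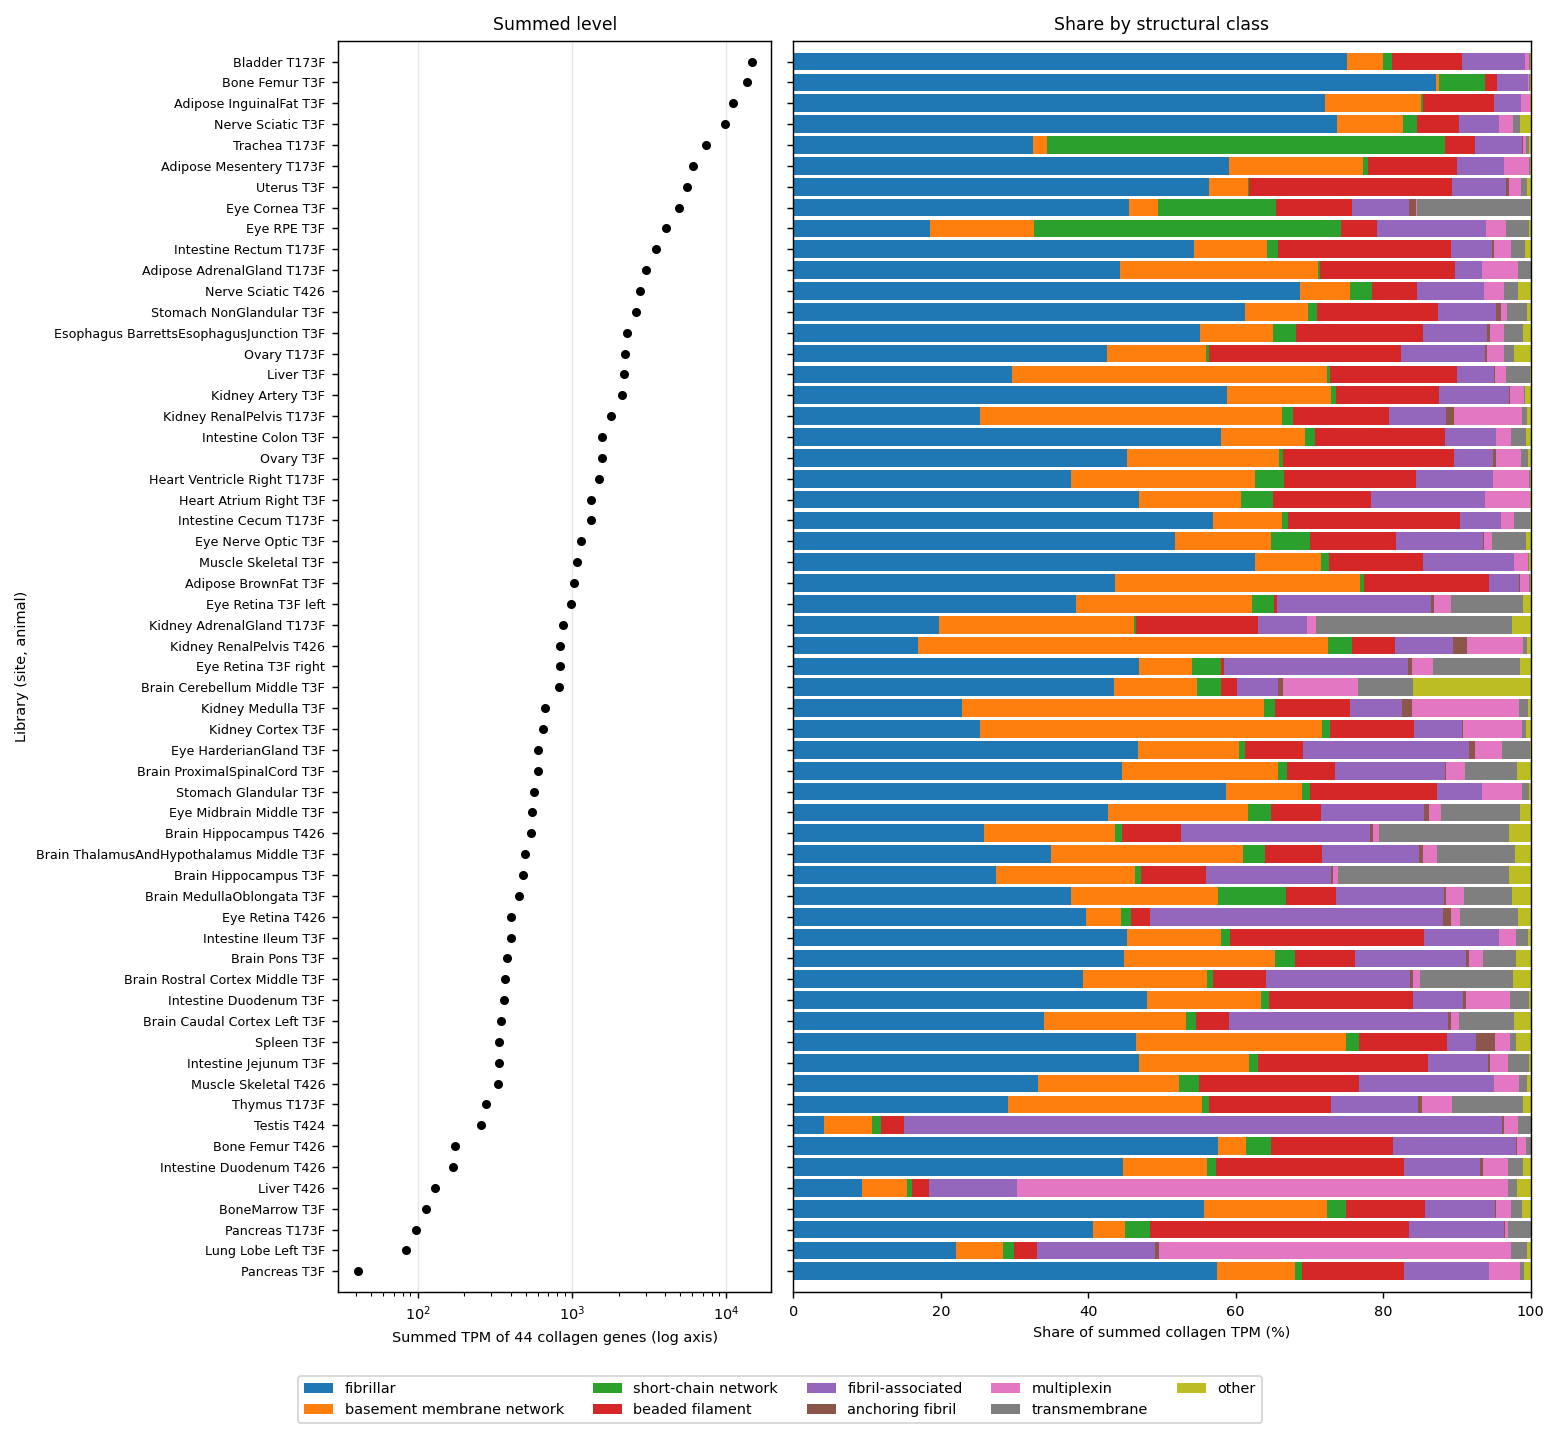
Left, summed TPM of the 44 collagen genes per library on a log axis, from 40.9 TPM in pancreas T3F at the bottom to 14577 TPM in bladder at the top. Right, the share of that sum held by each structural class (percent, bars add to 100). Blue fibrillar shares dominate at the top, and trachea, retinal pigment epithelium, renal pelvis, liver T426 and testis depart from that pattern.

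Type I and type III collagen are the main fibres of bone, tendon, vessel wall and loose connective tissue. Col1a1, the alpha 1 chain of type I, reached 6449 TPM in femur T3F, 3853 in bladder, 2099 in sciatic nerve T3F, 1233 in inguinal fat and 1218 in cornea, and its median over 59 libraries was 30.9 TPM. Col1a2, its partner chain, was high in the same 5 libraries, at 3209, 2057, 1415, 992 and 773 TPM. Col3a1, the single chain of type III, had another order. It led in inguinal fat with 4847 TPM, then bladder (3935), sciatic nerve T3F (2538), mesentery (2393) and uterus (1606), and femur T3F had 674 TPM. Type III RNA was thus far below type I RNA in femur T3F and close to it in bladder. In the 10 brain, cord and midbrain libraries Col1a1 stood at 2.27 to 27.8 TPM and Col3a1 at 2.25 to 18.2 TPM.

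Type V collagen is found within type I fibrils and limits their width. Col5a2 peaked in bladder (918 TPM), inguinal fat (695) and femur T3F (626), and Col5a1 in bladder (131), sciatic nerve T3F (98.3) and inguinal fat (96.4). The third chain gene, Col5a3, known in the rat as a collagen of Schwann cells, was distributed differently. It had 430.4 TPM in sciatic nerve T3F and 708 TPM in sciatic nerve T426, then 168 and 174 TPM in the left and right retina of T3F and 49.9 TPM in the T426 retina. The next sites were mesentery at 62.1 and inguinal fat at 58.6 TPM, femur T3F had 5.18 TPM, and the median was 2.70 TPM. The smaller fibrillar gene Col24a1, described in developing mouse bone, was also highest in sciatic nerve, at 13.4 TPM in T3F and 63.8 TPM in T426, and had 8.69 TPM in femur T3F.

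Of the cartilage collagens of types II, IX and X, Col2a1, Col10a1 and Col9a2 were highest in trachea. Col9a1 and Col9a3 were highest in retinal pigment epithelium, and femur T3F was second for Col10a1. Col2a1, the main fibre of cartilage and of the vitreous, reached 655 TPM in trachea, 68.8 and 69.4 TPM in the retinas of T3F, 62.2 in femur T3F, 42.2 in retinal pigment epithelium and 26.3 in retina T426, against a median of 0.324 TPM. Col10a1, the product of hypertrophic chondrocytes, was the most abundant collagen gene in trachea with 3822 TPM. It stood at 736 TPM in femur T3F and 0.535 TPM in femur T426, at 87.7 TPM in retinal pigment epithelium, and at 10.7 TPM or less in every other library. Chondrocyte markers, 6 of which are in the table, summed to 6319 TPM in trachea with all 6 at 1 TPM or more. Col9a1, a type IX chain that coats type II fibrils, led in retinal pigment epithelium (369 TPM) rather than in trachea (194), and was at 150 and 155 TPM in the retinas of T3F and 23.2 TPM in retina T426. Its partner Col9a2 had its maximum in trachea (96.0 TPM) but also 62.3 and 43.3 TPM in the sciatic nerves of T3F and T426, where Col9a1 was at 0.192 TPM in T3F and listed at 0 in T426. Col9a3, the remaining chain of type IX, never exceeded 15.5 TPM.

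Type XI forms the core of cartilage fibrils. Both of its chain genes had higher medians in brain, cord and midbrain than in the other libraries, Col11a2 by the wider margin. Col11a1 was highest in femur T3F (545 TPM), trachea (162) and optic nerve (111). Col11a2 peaked in optic nerve (198 TPM), femur T3F (194) and trachea (162), but it was also the most abundant collagen gene in 8 libraries. In the 10 brain, cord and midbrain libraries Col11a2 ran from 27.9 to 102 TPM with a median of 66.9, against a median of 0.888 TPM in the other 49 libraries. Col11a1 had a median of 25.8 TPM in those 10 and 2.86 TPM in the other 49. Col27a1, a fibrillar gene of cartilage, was highest in cerebellum at 287 TPM, where it made up 35.1% of all collagen TPM, with trachea (143) and renal pelvis T173F (123) next. The other 9 brain, cord and midbrain libraries had 4.59 to 18.7 TPM.

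Type IV genes followed 2 patterns. Col4a1 and Col4a2, the chains of nearly all basement membranes, were highest in inguinal fat (738 and 661 TPM), mesentery (491 and 584) and sciatic nerve T3F (463 and 392), and were above 1 TPM in 58 of 59 libraries each. Col4a3, Col4a4 and Col4a5, the chains of the kidney filter that are altered in Alport disease, were high in renal pelvis instead. Col4a3 had 117 TPM in renal pelvis T173F and 122 TPM in T426, Col4a4 191 and 109 TPM, and Col4a5 241 and 141 TPM. All 4 kidney cortex, medulla and pelvis libraries lay at 35.8 to 122 TPM for Col4a3 and at 56.2 to 191 TPM for Col4a4. Outside the kidney both were highest in the T3F library labelled liver (62.3 and 79.3 TPM), the one with alveolar markers. Col4a5 was also 228 TPM in retinal pigment epithelium, and Col4a6, which pairs with Col4a5 in smooth muscle and epithelial membranes, was highest there (79.7 TPM), followed by renal pelvis T173F (63.9) and T426 (46.6).

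The eye held the maxima of several net-forming and epithelial collagens. Col8a1 and Col8a2, the chains of the net beneath the corneal endothelium, reached 1039.7 and 569 TPM in retinal pigment epithelium and 121 and 671 TPM in cornea. Bladder, the next library for Col8a1, had 165 TPM, and femur T3F, the next for Col8a2, had 83.4 TPM. Col17a1, the hemidesmosome collagen of stratified epithelium, stood at 751 TPM in cornea, 12.6 times the next site, rectum, at 59.5 TPM. The esophageal junction (48.8 TPM) and non-glandular stomach (33.2) followed, and the median was 0.203 TPM. Col7a1, the anchoring fibril, was likewise highest in cornea (49.3 TPM), then uterus (24.1) and renal pelvis T173F (20.6).

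Type VI genes were broad. Col6a1 peaked in bladder (499 TPM), uterus (402) and rectum (315), Col6a2 in uterus (691) and bladder (611), and Col6a3 in bladder (245) and inguinal fat (197). Col6a4, whose mouse gene encodes a chain that can replace the third one, was highest in inguinal fat (304 TPM) and uterus (253). The library labelled Adipose.AdrenalGland had 224 TPM, and the ovaries of T3F and T173F had 194 and 119 TPM. Col6a5 stayed at or below 34.5 TPM everywhere, with 18.3 and 14.5 TPM in the hippocampi of T3F and T426. Col6a6 was highest in uterus (66.9 TPM), sciatic nerve T3F (30.8) and mesentery (30.3). Col6a3 was at 0.589 TPM in the mean of the T3F retinas and 0.715 TPM in the T426 retina, against a median of 10.4 TPM over all libraries, and lower still in the library labelled lung T3F (0.116 TPM), liver T426 (0.194), testis (0.253) and pancreas T3F (0.315).

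Among fibril-associated genes, Col12a1, of dense tissue such as tendon, reached 624 TPM in bladder, 354 in femur T3F and 303 in cornea. Col14a1, a related chain, peaked in bladder (441 TPM), mesentery (339), inguinal fat (331) and sciatic nerve T3F (319.9), with 184 and 130.4 TPM in right atrium and right ventricle. Col16a1 was highest in uterus (169 TPM) and bladder (165). Col19a1, expressed in mouse by some neurons, was highest in nervous tissue, at 34.9 and 44.7 TPM in the hippocampi of T3F and T426 and 44.3 TPM in caudal cortex, against a median of 0.108 TPM in the 49 libraries outside brain, cord and midbrain.

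Col20a1 and Col22a1 had their maxima in testis, at 65.3 and 117 TPM, in the shallowest library of the series. The next libraries of Col20a1 were retina T426 (17.9 TPM) and hippocampus T426 (9.08), both with germ cell markers, and retina and hippocampus of T3F had 2.90 and 3.87 TPM. Col22a1, known from the junction of muscle and tendon, had 115 TPM in femur T3F, 71.8 in retina T426, 31.5 in hippocampus T426, and 26.9 and 23.0 TPM in the skeletal muscle of T3F and T426. Retina and hippocampus of T3F had 6.34 and 2.25 TPM. Germ cell markers summed to 5.78 TPM in hippocampus T3F and 44048 TPM in hippocampus T426, and their part in these levels was not tested.

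The multiplexin Col18a1, source of the endostatin fragment, was highest in renal pelvis T173F (163 TPM), retinal pigment epithelium (97.8), kidney medulla (89.5) and liver T426 (86.4). Col15a1 peaked in mesentery (155 TPM), sciatic nerve T3F (134) and the library labelled Adipose.AdrenalGland (109). Transmembrane genes were split between organs. Col23a1 stood at 218 TPM in the adrenal library filed under kidney, 117 in retinal pigment epithelium and 96.6 in sciatic nerve T3F. Col25a1, found in amyloid plaques of brain, was highest in hippocampus T3F (42.0 TPM), midbrain (38.4) and hippocampus T426 (35.3). Its median was 19.5 TPM in the 10 brain, cord and midbrain libraries and 0.0379 TPM in the other 49, although cerebellum had only 0.789 TPM. Col13a1, of the nerve and muscle junction, was highest in the T3F library labelled liver (62.0 TPM) and in cerebellum (39.0 TPM). Cerebellum was also the highest library of Col28a1 (129 TPM, ovary T173F next at 47.1), and Col26a1 was highest in sciatic nerve, at 92.7 TPM in T3F and 11.1 TPM in T426, with uterus next at 6.95 TPM.

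Chains of a single protein were set side by side over the 59 libraries, which share animals and differ in depth, as a description. Pearson's r of log2(TPM + 1) was 0.957 for Col1a1 with Col1a2, 0.956 for Col6a1 with Col6a2, 0.954 for Col4a1 with Col4a2, 0.948 for Col6a1 with Col6a3 and 0.917 for Col4a3 with Col4a4. Pairs with looser values were Col4a4 with Col4a5 (0.699), Col9a1 with Col9a3 (0.669) and Col9a1 with Col9a2 (0.643). The median over 12 pairs was 0.872. In the RefSeq gene table of this species Col4a1 and Col4a2, Col4a3 and Col4a4, Col4a5 and Col4a6, and Col6a1 and Col6a2 are neighbouring genes, while the chains of type I are not. Type I protein is built from 2 alpha 1 chains and 1 alpha 2 chain. The TPM ratio of Col1a1 to Col1a2, in the 39 libraries with both at 10 TPM or more, ran from 0.124 in renal pelvis T173F to 2.01 in femur T3F with a median of 1.08. It was above 1 in all 5 libraries with Col1a1 at 1000 TPM or more (median 1.58). At 100 to 1000 TPM this held in 11 of 15 (median 1.20), and at 10 to 100 TPM in 7 of 19 (median 0.880). The bands were set by Col1a1, the numerator of the ratio, so part of such a rise is built in. For type V the ratio of Col5a1 to Col5a2 was 0.0744 in femur T3F, 0.175 at the median of 27 libraries and 1.53 in the adrenal library filed under kidney.

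**Figure D3:**
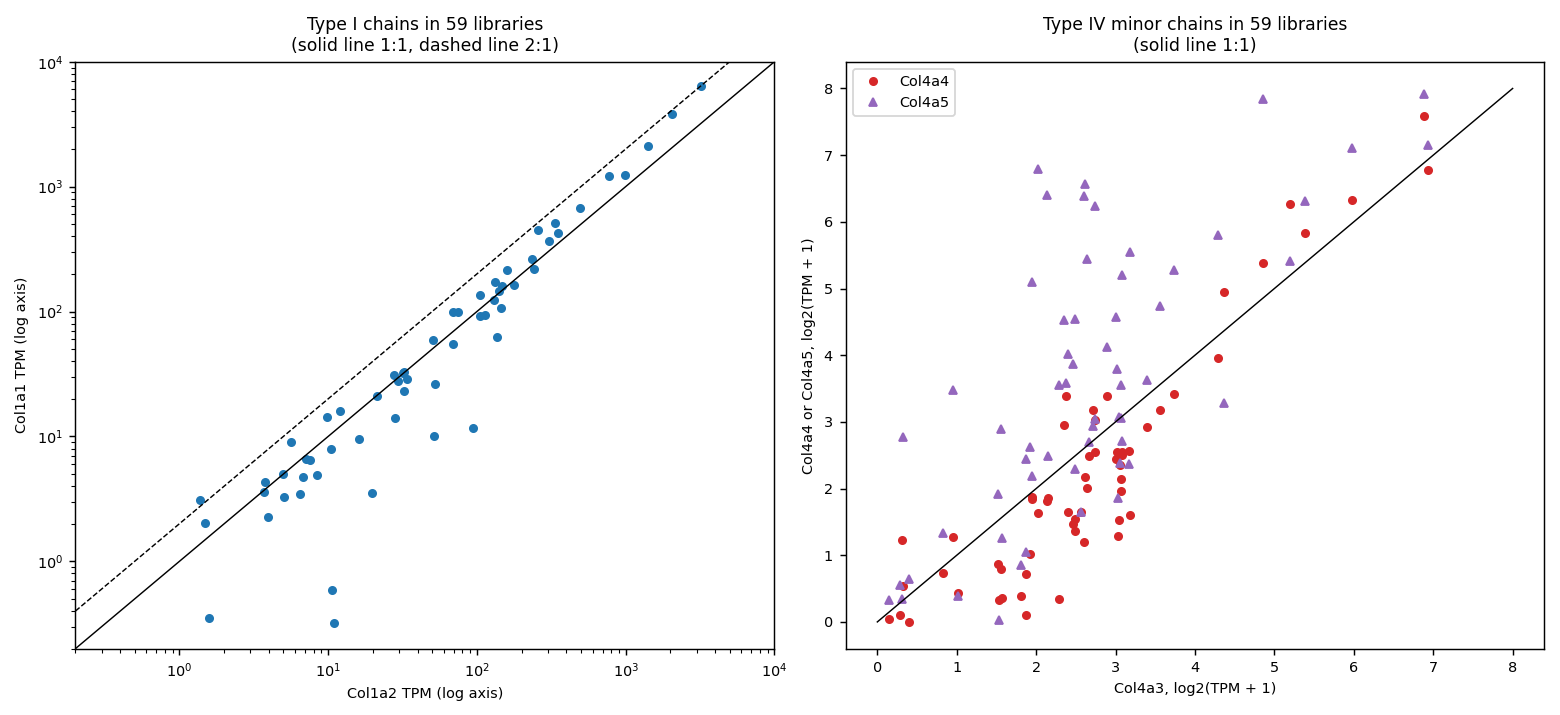
Left, Col1a1 against Col1a2 TPM on log axes in 59 libraries. The solid line marks equal levels and the dashed line a ratio of 2, which femur T3F reaches at the top right (2.01). Testis, with 3.09 and 1.38 TPM, lies above the dashed line at low levels (2.24). Right, Col4a4 (circles) and Col4a5 (triangles) against Col4a3 as log2(TPM + 1); Col4a4 stays near the line of equal levels (r = 0.917 with Col4a3), and many Col4a5 points lie above it.

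The 10 sites with 2 animals were then tested with edgeR's quasi-likelihood test on the rounded expected counts, with Benjamini-Hochberg adjustment over 17564 genes, all of the 44 members among them. The titles give the animal, and at some sites they also give the sampled part in 1 animal only: the left side for hippocampus T3F, the biggest lobe for the library labelled liver T3F and the femur for skeletal muscle T3F. For each gene all 10 sites share 1 estimate of the spread, because each has only 2 animals. The p-values and SE rest on this shared spread, not on that of a named site alone. A small value therefore does not mean that the 2 animals of that site were alike. In this spread animal, sampled part and handling cannot be told apart. A member differed among the 10 sites at an adjusted p below 0.05 in 34 of 44 cases (77.3%), against 41.4% of all genes tested. Col5a3 had the smallest adjusted p (4.02e-05), followed by Col25a1 (0.000228), Col10a1 (0.00083) and Col22a1 (0.00091). The 10 that did not pass were Col12a1, Col20a1, Col27a1, Col6a2, Col16a1, Col6a3, Col4a1, Col28a1, Col17a1 and Col4a2, the last at an adjusted p of 0.349. Of the 10 sites 6 (femur, sciatic nerve, muscle, ovary, hippocampus and retina) were each compared with the average over the remaining 9, and a call needed both an adjusted p below 0.05 and a log2 fold change of at least 1 in size. Beside each value the 18 libraries of the other sites are given by their lowest, median and highest TPM, with the retinas of T3F averaged.

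In femur 15 genes were higher, among them Col1a1, Col1a2, Col2a1 and Col10a1, and 13 of these calls ended without femur T3F. Of 44 members 15 were higher (34.1%), against 9.72% of all genes. None was lower by edgeR, against 0.518% of all genes, with 3 past the same fold at an unadjusted p under 0.05, 3 by DESeq2 and 0 by limma. The median log2 fold change was 1.71 for members and 0.03 for all genes. Calls covered 8 of 11 fibrillar genes, 2 of 3 short-chain, 3 of 9 fibril-associated, 1 of 6 beaded filament and 1 of 4 transmembrane genes, and 0 of 6 type IV genes. Col10a1 had 736 TPM in femur T3F and 0.535 TPM in femur T426, against 0, 0.901 and 9.91 TPM at the other sites. Its log2 fold change was 8.80 ± 0.90 (SE, adjusted p = 1.63e-05). The femur libraries fell on both sides of the other sites' median. Col1a1 had 6449 TPM in T3F and 28.9 TPM in T426, against 0.455, 10.6 and 2099 TPM, with a log2 fold change of 7.03 ± 0.92 (adjusted p = 0.000129). Col11a1 had 545 and 2.85 TPM, against 0, 9.46 and 93.4 TPM, with 6.26 ± 0.79 (adjusted p = 0.000133).

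For no member did both femur libraries lie above, or both below, all 18 others, which held for 1.01% of all genes. Without femur T3F the number of members higher fell to 2, Col22a1 and Col6a5, and Col5a2 (−0.36), Col9a1 (−5.20) and Col11a2 (−0.42) stood below the other sites on the log2 scale, against 3.55, 5.52 and 4.73 with it. Col10a1 was then at 0.85 and Col1a1 at 1.92, with no call. Col22a1, at 115 TPM in T3F and 9.72 TPM in T426 against 0, 1.13 and 71.8 TPM, kept its call under every alternative run (6.29 ± 0.73, adjusted p = 7.25e-05), while germ cell markers were present in the T426 library and testis was the highest library of this gene. Muscle fibre markers moved with it too, since 4 of 4 were higher in femur (list median 6.11 log2 units), with sums of 8560 TPM in T3F and 1296 TPM in T426, and their part was not tested. Without femur T426 the call of Col6a5 ended. Without liver T426, 3 members were lower. By limma 2 members were higher. In the smallest set of libraries in the closing part femur was left with T3F alone, so its count there is no check on these calls.

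**Figure D4:**
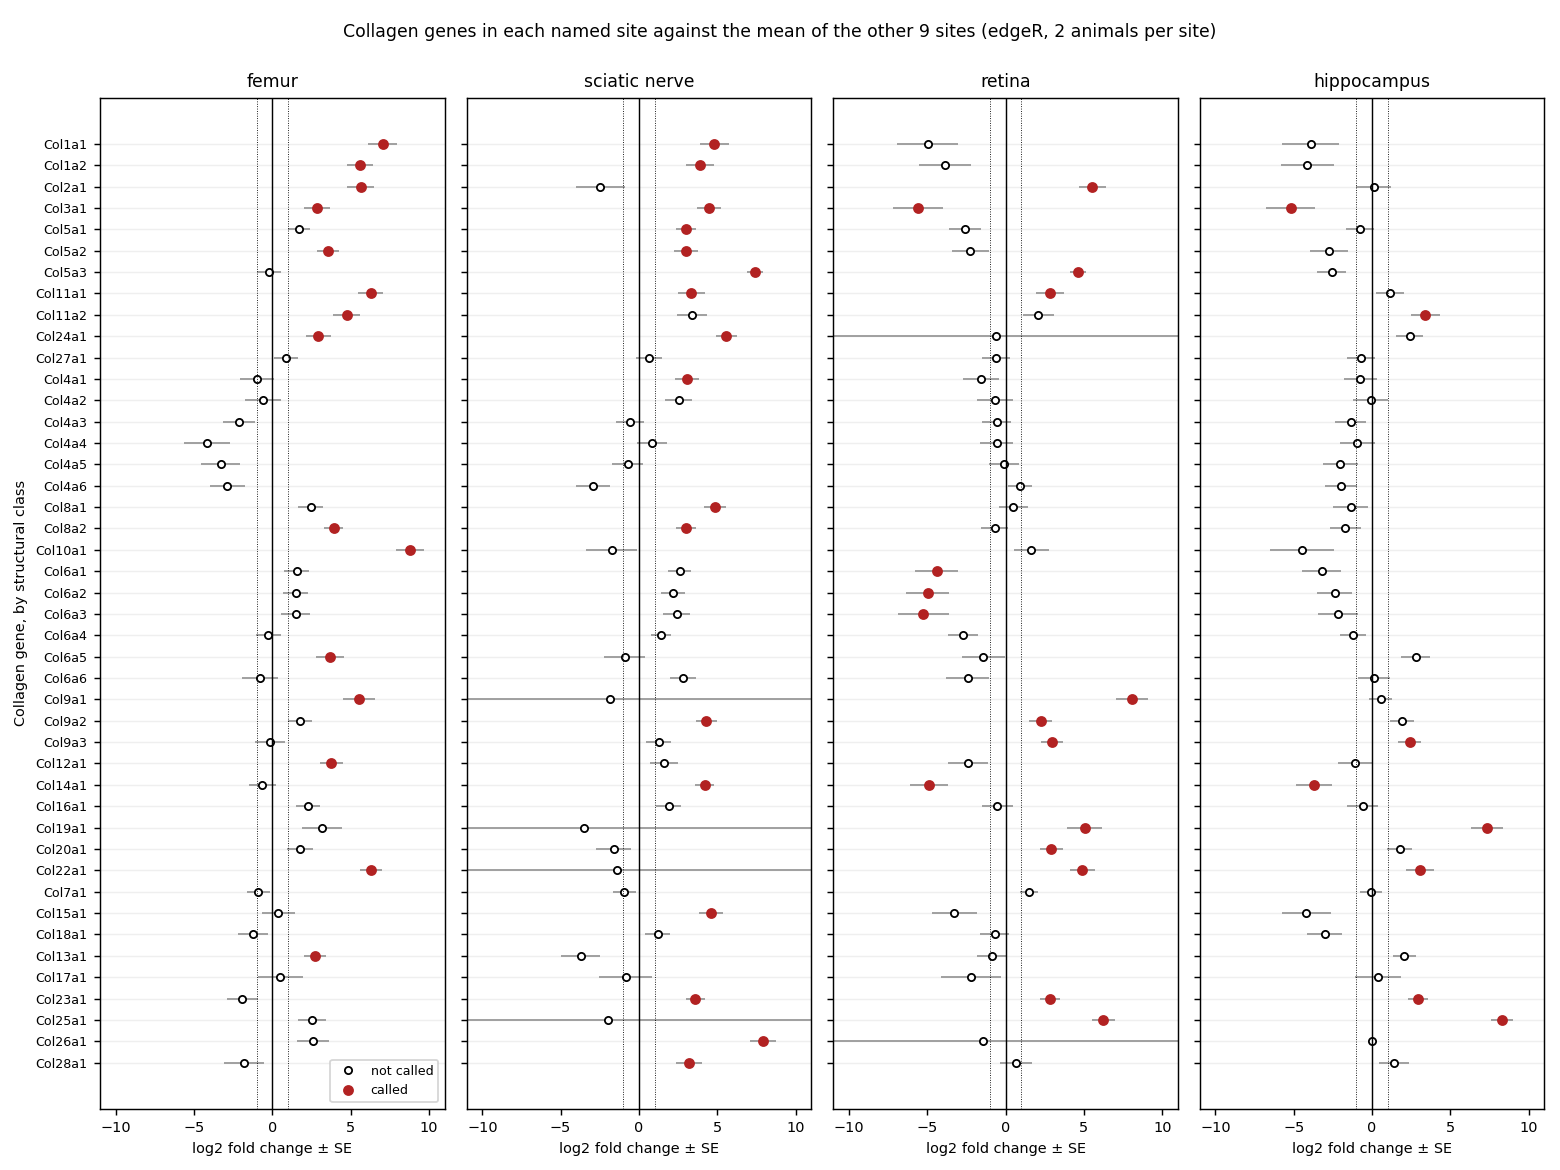
Log2 fold change with SE of each collagen gene in femur, sciatic nerve, retina and hippocampus, each against the mean of the other 9 sites (edgeR, 2 animals per site); filled red points passed the call (15, 17, 16 and 8 genes), dotted lines mark a fold of 1 log2 unit, and SE bars that run past the axis are cut at the frame. Most fibrillar genes at the top lie to the right in femur and sciatic nerve, and Col6a1, Col6a2 and Col6a3 lie to the left in retina.

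**Figure D5:**
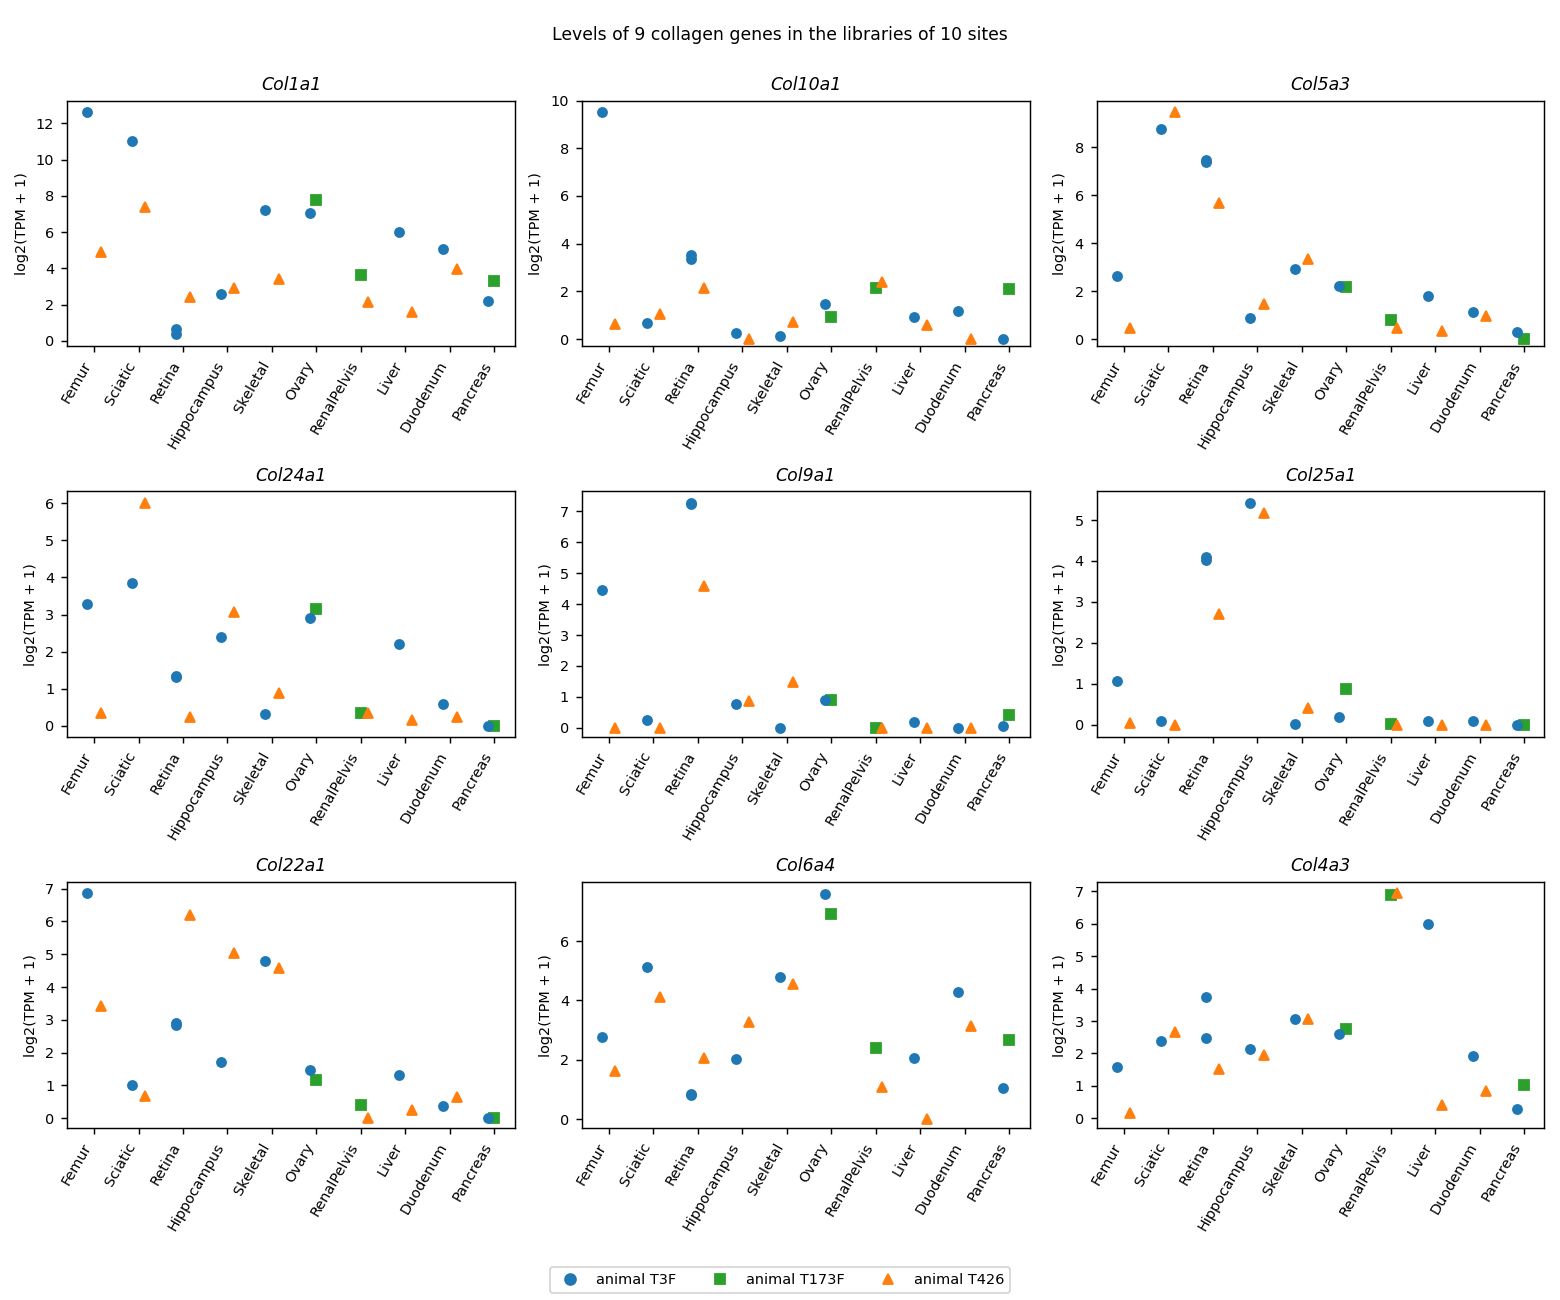
Levels as log2(TPM + 1) of 9 collagen genes in each library of the 10 sites with 2 animals; marker and colour give the animal, and both retinas of T3F are drawn. Col1a1 and Col10a1 are far higher in femur T3F than in femur T426, Col5a3 and Col24a1 are highest in both sciatic nerves, Col25a1 in both hippocampi, Col6a4 in both ovaries and Col4a3 in both renal pelvis libraries.

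In sciatic nerve 17 of 44 members were higher (38.6%), against 4.94% of all genes. None was lower by edgeR, against 0.125% of all genes, with 2 at an unadjusted p under 0.05, 2 by DESeq2 and 0 by limma. The median log2 fold change was 2.29 for members and −0.08 for all genes. The calls took in 8 of 11 fibrillar genes, both genes outside the named classes (Col26a1 and Col28a1), 2 of 3 short-chain genes, 2 of 9 fibril-associated genes and Col4a1, Col15a1 and Col23a1. For 8 members (18.2%) the nerve libraries lay above the other 18, and the ranges were apart, in either direction, for 2.55% of all genes. Col5a3 had the smallest adjusted p, at 430.4 TPM in T3F and 708 TPM in T426 against 0, 1.46 and 171 TPM at the other sites (log2 fold change 7.41 ± 0.52, adjusted p = 1.19e-06). Col26a1 had 92.7 and 11.1 TPM, against 0, 0.206 and 3.28 TPM, with 7.90 ± 0.84 (adjusted p = 0.00012).

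Other members with no overlap had lower levels or smaller folds. Col24a1 had 13.4 and 63.8 TPM in the nerves of T3F and T426, against 0, 0.393 and 8.69 TPM (5.57 ± 0.69, adjusted p = 0.000229), and Col9a2 had 62.3 and 43.3 TPM, against 0, 0.894 and 24.8 TPM (4.30 ± 0.66, adjusted p = 0.00095). These and Col5a3 and Col26a1 kept the call in all 20 fits that left out 1 library. Col8a1 (137 and 43.4 TPM, against at most 24.9 TPM), Col15a1 (134 and 47.8, against at most 19.6), Col14a1 (319.9 and 105, against at most 81.8) and Col5a1 (98.3 and 59.1, against at most 48.0) lost it without nerve T3F. Without that library 4 members were higher in all. By limma 3 were higher. Schwann cell markers summed to 123649 TPM in nerve T3F and 26209 TPM in nerve T426, where acinar markers reached 73354 TPM and germ cell markers 1915 TPM, and Col5a3 and Col24a1 were higher in that second library. Markers of other cell types were higher in nerve too: 5 of 6 fibroblast genes (list median 4.32 log2 units, sums of 5004 TPM in T3F and 7146 TPM in T426, the highest of all 59 libraries), 4 of 4 muscle fibre genes (3767 and 723 TPM) and 5 of 5 acinar genes, which reached 4467 TPM in nerve T3F. Their part in the collagen calls was not tested.

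Nerve against hippocampus sets peripheral against central nervous tissue of the same animals. Of 44 members 5 were higher in sciatic nerve (11.4%), against 2.13% of all genes, and 2 were lower (4.55%), against 3.11%. Col3a1 had 2538 and 381 TPM in the nerves of T3F and T426, against 2.51 and 5.87 TPM in their hippocampi (log2 fold change 8.71 ± 1.97, adjusted p = 0.0243). Col5a3 had 430.4 and 708 TPM against 0.813 and 1.75 TPM (8.98 ± 1.38, adjusted p = 0.00795), and Col14a1 319.9 and 105 TPM against 1.33 and 2.33 TPM (7.10 ± 1.45, adjusted p = 0.0173). Col15a1 (7.91 ± 1.99) and Col26a1 (7.10 ± 1.85) were the others. Col25a1 was lower, with 0.0741 TPM in nerve T3F and listed at 0 in nerve T426, against 42.0 and 35.3 TPM in hippocampus (−9.25 ± 1.72, adjusted p = 0.0138), and so was Col13a1, with 0.222 and 0.263 TPM against 8.34 and 11.9 TPM (−5.21 ± 1.42, adjusted p = 0.0482). The levels of 42 members (95.5%) did not overlap between the sites, in a comparison of 2 libraries with 2, as was so for 65.2% of all genes tested. None of the 7 calls held in all 20 fits, since leaving out any of these 4 libraries ended all 7. The number of members higher was 12 without either library of the site labelled liver, 9 without either pancreas library, 8 without femur T3F, and 3 without retina T3F or any 1 library of duodenum, renal pelvis or muscle. With the animal as a replicate block 9 were higher, and by DESeq2 15 were.

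Femur against sciatic nerve gave 1 call. No member was higher in femur by edgeR, against 0.575% of all genes, with 9 at an unadjusted p under 0.05, 5 by DESeq2 and 1 by limma. Col5a3 was lower, against 0.495% of all genes: 5.18 TPM in femur T3F and 0.382 TPM in femur T426, against 430.4 and 708 TPM in nerve (−6.88 ± 1.26, adjusted p = 0.0228). This call ended without any of these 4 libraries. Col1a1, at 6449 and 28.9 TPM in femur against 2099 and 164 TPM in nerve, had a log2 fold change of 2.001 ± 1.81 (adjusted p = 0.607), and of −3.11 without femur T3F. Without either pancreas library 4 members were higher and 3 lower, without either library of the site labelled liver 1 and 3, and without femur T426 or a retina 1 was higher.

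In hippocampus Col25a1 and Col19a1 were higher, and the share of members called was close to that of all genes. Of 44 members 6 were higher (13.6%), against 12.9% of all genes, and 2 lower (4.55%), against 2.06%. Col25a1 had 42.0 TPM in T3F and 35.3 TPM in T426, against 0, 0.0457 and 15.6 TPM (8.29 ± 0.70, adjusted p = 3.06e-06). Col19a1 had 34.9 and 44.7 TPM, against 0, 0.0825 and 13.2 TPM (7.31 ± 1.02, adjusted p = 0.000248). Both were above every library of the other sites and kept the call in all 20 fits. Col11a2 (64.9 and 73.8 TPM, 3.39 ± 0.93), Col23a1 (61.4 and 47.9 TPM, 2.93 ± 0.64), Col22a1 (2.25 and 31.5 TPM, 3.04 ± 0.89) and Col9a3 (3.67 and 4.04 TPM, 2.41 ± 0.73) overlapped the other sites. The call of Col9a3 ended in 12 of the 20 fits. The call of Col22a1 ended without hippocampus T426, at 0.37. Lower members were Col3a1 (2.51 and 5.87 TPM, −5.20 ± 1.58) and Col14a1 (1.33 and 2.33 TPM, −3.70 ± 1.14), and both calls ended without either hippocampus library, without either duodenum library or without renal pelvis T173F. The number lower was 4 without liver T426 or pancreas T173F, and 1 without femur T3F or T426, retina T3F, renal pelvis T426, muscle T3F, nerve T3F or either ovary library. Without hippocampus T3F or T426, 3 members were higher. DESeq2 gave 11 lower members.

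In retina, Col9a1, Col2a1, Col5a3 and Col25a1 were higher in every fit that left out 1 library, and 3 of 6 type VI genes (Col6a1, Col6a2 and Col6a3) were lower. Of 44 members 11 were higher (25%), against 17.0% of all genes, and 5 lower (11.4%), against 4.11%. Col9a1 had 153 TPM in T3F, the mean of both sides, and 23.2 TPM in T426, against 0, 0.0962 and 20.8 TPM (8.07 ± 0.997, adjusted p = 0.000119), the one member without overlap (2.27%, against 3.42% of all genes). Col2a1 had 69.1 and 26.3 TPM, against 0, 0.344 and 62.2 TPM (5.54 ± 0.88, adjusted p = 0.000472), and Col5a3 171 and 49.9 TPM, against 0, 1.46 and 708 TPM (4.63 ± 0.53, adjusted p = 2.67e-05). Col25a1 had 15.6 and 5.56 TPM (6.23 ± 0.73). Photoreceptor markers summed to between 1874 and 5329 TPM in the 3 retina libraries. All 4 lens markers were also higher in retina (list median 7.39 log2 units), with sums of 5141 TPM in the left and 109 TPM in the right retina of T3F and 3.07 TPM in T426. Type IV genes, which make up the lens capsule among other membranes, summed to 233, 59.7 and 18.9 TPM in those libraries, and the part of lens RNA in the retina results was not tested.

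Col22a1, Col20a1 and Col19a1 were also called in retina, with their higher values in T426: 6.34 TPM in T3F and 71.8 TPM in T426, 2.90 and 17.9 TPM, and 2.20 and 13.2 TPM. All 3 calls ended without retina T426, which left log2 fold changes of 1.80, 0.63 and 2.81 in place of 4.91, 2.93 and 5.05. Germ cell markers summed to 118806 TPM in that library, with 5 of 5 at 1 TPM or more. Col23a1, Col9a3, Col11a1 and Col9a2 completed the higher set, at 2.25 to 2.95 log2 units. The lower members were Col3a1 (1.48 and 3.86 TPM, −5.59 ± 1.62), Col6a3 (0.589 and 0.715 TPM, −5.24 ± 1.61), Col6a2 (0.902 and 2.06 TPM, −4.98 ± 1.36), Col14a1 (1.06 and 0.491 TPM, −4.88 ± 1.23) and Col6a1 (0.943 and 1.90 TPM, −4.41 ± 1.35). The 18 other libraries had medians of 59.3, 13.6, 22.4, 9.84 and 16.0 TPM for these 5 genes, and the ranges overlapped. Without either the T3F or the T426 retina 0 members were lower, and 7 or 5 were higher. With the animal as a replicate block the call of Col6a1 ended, and so did those of Col9a2 and Col20a1.

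Skeletal muscle and ovary had few calls, at shares near those of all genes. In muscle 3 of 44 members were higher (6.82%), against 6.19% of all genes. None was lower by edgeR, against 0.991%, with 3 at an unadjusted p under 0.05, 3 by DESeq2 and 0 by limma. The calls were Col22a1 (26.9 TPM in T3F and 23.0 TPM in T426, against 0, 1.13 and 115 TPM; 5.12 ± 0.77, adjusted p = 0.00061), Col14a1 (80.5 and 25.5 TPM, 3.21 ± 0.63) and Col6a4 (26.5 and 22.3 TPM, 2.47 ± 0.61). Col22a1 kept the call in all 20 fits. Without muscle T3F the count was 1, and without femur T3F, the library labelled liver T3F or either pancreas library it was 5, and 1 member was lower without any 1 library of liver or pancreas. In ovary 2 of 44 members were higher (4.55%), against 3.57%. None was lower by edgeR, against 0.108%, with 2 at an unadjusted p under 0.05, 2 by DESeq2 and 0 by limma. Col6a4 had 119 TPM in T173F and 194 TPM in T3F, above the 0, 4.78 and 34.3 TPM of the other sites (3.75 ± 0.55, adjusted p = 0.0014). Col4a6 had 34.7 and 26.2 TPM, against 0, 0.567 and 63.9 TPM (3.66 ± 0.63, adjusted p = 0.00397). Without ovary T173F the count was 1, and without either library of the site labelled liver it was 4.

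Genes that build, bind and cut collagen were counted at the same sites. In sciatic nerve 8 of 10 small leucine-rich proteoglycans, which coat fibrils, were higher, 5 of 14 procollagen proteases and cross-linking enzymes, 4 of 11 collagen receptors and 3 of 9 collagenases and gelatinases tested. Of 22 processing enzymes and chaperones 0 were called higher there by edgeR, with 7 at an unadjusted p under 0.05, 2 by DESeq2 and 0 by limma. The list medians were 3.69, 2.60, 1.88, 1.39 and 0.97 log2 units, against −0.08 for all genes, of which 4.94% were called higher. Decorin (Dcn) had 3347 and 5330.2 TPM in the nerves of T3F and T426, against 7.10, 181 and 1288 TPM (4.29 ± 0.47, adjusted p = 6.46e-05), and Pcolce2, an enhancer of procollagen cleavage, 323 and 246 TPM, against 0, 1.46 and 165 TPM (5.87 ± 0.70, adjusted p = 0.000132).

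In femur 7 of 9 collagenases and gelatinases tested were higher, 5 of 10 proteoglycans and 2 of 11 receptors, with list medians of 2.79, 2.77 and 0.99 log2 units against 0.03 for all genes; by limma these were 4, 0 and 1. Of 22 processing enzymes and chaperones 0 were called higher by edgeR, with 6 at an unadjusted p under 0.05, 2 by DESeq2 and 0 by limma, and of 14 procollagen proteases and cross-linking enzymes 0 by edgeR, with 5, 2 and 0. Their medians were 0.51 and 1.25 log2 units, and 9.72% of all genes were higher. Unlike the fibrillar genes, Mmp8, the collagenase of neutrophils, was well above the other sites in both animals. It had 270.4 TPM in T3F and 96.5 TPM in T426, against 0, 0 and 1.05 TPM (12.41 ± 0.80, adjusted p = 1.46e-06). Mmp9, a gelatinase, had 119 and 32.8 TPM, against 0, 0.0732 and 1.85 TPM, and Gp6, the collagen receptor of platelets, 83.0 and 25.6 TPM, against 0, 0.794 and 31.2 TPM. In retina 5 of 10 proteoglycans and 4 of 11 receptors were lower, against 4.11% of all genes. Their list medians were −3.97 and −2.17 log2 units, against 0.14 for all genes.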

How the data were processed

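Bulk polyA RNA-seq libraries (TruSeq, paired end, HiSeq 3000, per the labels) were quantified by the authors with RSEM and Bowtie 0.12.8, per the submitters' processing notes. Which genome build was used is not given in the sources used here. One deposited table holds the expected counts per gene that the authors obtained from RSEM, which need not be whole. The other holds TPM values, scaled by the authors for gene length and library total. All columns were assigned to samples by name.

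TPM was used as deposited for levels. A gene counted as present at 1 TPM, and chain correlations used log2(TPM + 1). Apart from renal pelvis T173F (23901468 counts), fewer reads were available for T426, T173F and T424 than for most T3F libraries. A gene listed at 0 in those shallower libraries may lie under the limit of 3 counts, which covers counting error only. Depth bears on the tests through the spread between animals.

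Before testing, values of the count table were rounded to integers, the retinas of T3F were summed (they are sides of 1 animal), and 20 libraries of 10 sites were fitted with edgeR 4.0.16 (R 4.3.3) after TMM scaling and filterByExpr, which kept 17564 genes. The quasi-likelihood test was used with Benjamini-Hochberg adjustment, and SE is the log2 fold change divided by the root of F. The script was tested on simulated data. Alternatives were relative log expression (RLE) scaling in edgeR, no filter, DESeq2 1.42.0, limma 3.58.1 and the animal as a replicate block. Each library was also left out in turn, and smaller sets of libraries were fitted. Tables were handled with Python 3.11.15 and pandas 2.3.3.

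The titles name the animal, so libraries of 1 animal are paired across sites. The difference between T426 and T3F over 17564 genes correlated between sites at 0.0189 to 0.808 (median 0.126, 21 pairs of 7 sites).

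Every member could be named. Other genes came only from lists of matrix enzymes, receptors and proteoglycans, up to 4 per comparison by smallest adjusted p. The members, lists and tests were chosen with earlier results of these data known. Gene neighbours came from the RefSeq table of assembly mArvNil1.pat.X, in which 42 of the 44 symbols were found.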

Additional observations from a re-analysis of the deposited data

How the results depend on the processing

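Of 69 calls of collagen genes over the 8 comparisons, 13 held in each fit that left out 1 library, 44 were lost by limma and 7 with the animal as a replicate block. The cause of these changes was not tested.

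Leaving out 1 library gave 27 to 39 genes that differ among the 10 sites. Higher and lower members were 2 to 18 and 0 to 3 in femur, 4 to 22 and 0 in sciatic nerve, 1 to 5 and 0 to 1 in muscle, 1 to 4 and 0 in ovary, 3 to 9 and 0 to 4 in hippocampus, and 5 to 12 and 0 to 7 in retina. For nerve against hippocampus they were 0 to 12 and 0 to 3, and for femur against nerve 0 to 4 and 0 to 3. Without femur T3F the log2 fold changes in femur turned to −0.36 for Col5a2, −5.20 for Col9a1 and −0.42 for Col11a2, and the highest values with 1 library left out were 4.56, 6.57 and 5.77. That of Col1a1 in femur against sciatic nerve ran from −3.11 without femur T3F to 4.96 without nerve T3F.

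By limma 19 genes differed among the sites, and those higher were 2 in femur, 3 in nerve, 1 in muscle, 0 in ovary, 2 in hippocampus, 4 in retina and 1 in femur against nerve. By DESeq2 those lower were 3 in femur, 2 in nerve, 3 in muscle, 2 in ovary, 11 in hippocampus and 10 in retina. DESeq2 gave 15 higher and 4 lower for nerve against hippocampus, and 5 and 7 for femur against nerve. With no filter on low counts 1 member was lower in nerve against hippocampus.

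With the animal as a replicate block 1 member was lower in hippocampus, 9 were higher in nerve against hippocampus, and 1 was higher and 2 lower in femur against nerve; the calls lost were those of Col3a1 and Col24a1 in femur, Col14a1 and Col22a1 in hippocampus and Col9a2, Col20a1 and Col6a1 in retina.

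Without the library labelled liver T3F and pancreas T173F, those higher were 9 in muscle, 6 in ovary, 10 in hippocampus, 14 in nerve against hippocampus and 4 in femur against nerve. Those lower were 2 in femur, 2 in nerve, 1 in muscle, 5 in hippocampus and 5 in femur against nerve. Leaving out retina, hippocampus, femur, nerve and renal pelvis of T426 as well left 1 library at 7 sites, which is assumed to vary like the others. Those higher were then 24 in femur, 13 in muscle, 7 in ovary, 9 in nerve against hippocampus and 3 in femur against nerve. Those lower were 2 in muscle, 1 in ovary, 1 in nerve against hippocampus and 2 in femur against nerve.

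The median number of members present in a library was 42 at 0.1 TPM and 16 at 10 TPM. RLE scaling in edgeR in place of TMM moved the median of all genes by 0.121 in hippocampus and 0.123 in retina on the log2 scale. The shift was −0.136 in nerve against hippocampus and less than 0.1 in size in the other comparisons.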

Other observations

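Genes that act on collagen were counted in 2 further sites. In hippocampus 0 of 10 small leucine-rich proteoglycans were higher by edgeR, DESeq2 or limma, or at an unadjusted p under 0.05. By edgeR 1 was lower, with 5 at an unadjusted p under 0.05, 5 by DESeq2 and 1 by limma. Of all genes 12.9% were higher and 2.06% lower by edgeR. The list median was −2.23 log2 units, against −0.01 for all genes. Of 14 procollagen proteases and cross-linking enzymes 1 was higher in hippocampus and 2 were lower by edgeR. At an unadjusted p under 0.05 these were 1 and 6, by DESeq2 1 and 6, and by limma 1 and 2. The higher one was Adamts3, a procollagen protease, at 21.7 TPM in T3F and 9.38 TPM in T426 (log2 fold change 4.10 ± 0.66, adjusted p = 0.000565). In retina, decorin (Dcn) had 7.10 TPM in T3F and 12.5 TPM in T426, below all 18 libraries of the other sites, where the lowest was 14.6 TPM (−5.38 ± 0.99, adjusted p = 0.00157).

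In femur Mmp13, a collagenase of bone and hypertrophic cartilage, had 956 TPM in T3F and 134 TPM in T426, against at most 348 TPM at the other sites, in renal pelvis T426 (9.50 ± 1.12, adjusted p = 0.000119). Col10a1 was at 0.535 TPM in the same T426 library.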
